A study of Mus musculus with 15 samples.

Results

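The genes described here encode the STAT transcription factors. They were taken by symbol, and the 6 members *Stat2*, *Stat3*, *Stat4*, *Stat5a*, *Stat5b* and *Stat6* are 6 of the 35142 genes to which the deposited transcript values were summed. The samples were cultures of dissociated cerebellum from wild-type C57BL/6 pups aged postnatal day 0 to 4, plated at 90000 cells per well. At day 14 in vitro, 5 cultures were left unstimulated, 5 received 30 ng/ml and 5 received 100 ng/ml mouse IL-12p70 made as a recombinant protein (the complete 2-chain form of the cytokine), for 18 h. The question addressed was how the transcription of these cells responds to IL-12, and it is asked here of the factors that carry cytokine signals to the nucleus. Bulk RNA-seq gave between 25746096 and 38435850 assigned reads per culture. The labels do not say whether the 5 cultures of a group came from separate animals, so the p-values measure only the spread between these cultures, which may be technical.

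The samples are labelled as neurons, but the markers of glia were the more abundant. The summed TPM (a share of all transcripts, corrected for their length) of 15 neuronal markers was 265 to 365 per culture. The sum was 7184 to 12675 for 14 microglial markers, 3814 to 5279 for 10 astrocyte markers and 5926 to 9843 for 11 markers of the oligodendrocyte lineage. *Rbfox3*, which encodes the neuronal nuclear protein NeuN, had a mean of 3.42 TPM in the unstimulated cultures. In such bulk samples, fewer cells of a type and less RNA per cell cannot be told apart.

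STAT proteins wait in the cytoplasm until a cytokine receptor is engaged. Janus kinases bound to the receptor then phosphorylate them, and they pair up, enter the nucleus and bind DNA. IL-12 acts classically through *Il12rb1* and *Il12rb2*, the kinases JAK2 and TYK2 and the factor STAT4, as known from T and NK cells, whereas STAT3 serves the IL-6 family, STAT2 with IRF9 serves type I interferons, STAT5A and STAT5B serve growth hormone, prolactin and several interleukins, and STAT6 serves IL-4 and IL-13. Phosphorylation is not seen in RNA, so the values below are transcript levels and not activity of the factors.

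The family lies at 3 places in the genome (GRCm39, GENCODE M39). *Stat3* (chr11:100775924-100830450, minus strand), *Stat5a* (chr11:100750177-100776065, plus strand) and *Stat5b* (chr11:100671556-100741589, minus strand) are neighbours, *Stat6* (chr10:127477821-127496862) and *Stat2* (chr10:128106352-128128735) share chromosome 10 on the plus strand, and *Stat4* (chr1:52026307-52151423) lies on the plus strand of chromosome 1. The 3′ ends of *Stat3* and *Stat5a* run towards each other and share 142 exonic bases. *Stat6* shares 77 exonic bases with *Nab2* on the opposite strand. With long noncoding RNA genes on the opposite strand, *Stat3* shares 554 (*Gm46295*), *Stat5a* 470 (*Gm72578*) and *Stat4* 2649 (*Gm31812*) and 40 (*Gm69980*). On its own strand, *Stat4* shares 1033 exonic bases with the noncoding gene *Gm28177*. Whether reads were assigned by strand is not given in the sources used here. Without it, reads from bases shared between strands cannot be told apart. For the bases shared with *Gm28177*, strand would not tell them apart either.

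*Stat3* is made as splice forms that differ by a few bases, and these differences are shown because the transcript values below rest on them. The sequences are those of GENCODE M39 transcripts, read 5′ to 3′ along the mRNA. The capitals in the first mark 3 coding bases (chr11:100783900-100783902 on GRCm39) that *Stat3*-203 has and *Stat3*-201 lacks, and in the third 50 coding bases (chr11:100780367-100780416) that *Stat3*-203 has and *Stat3*-202 lacks. The loss of the former keeps the reading frame, so *Stat3*-201 is also a STAT3α form. The loss of the 50 bases shifts the reading frame and gives STAT3β, the form with a shortened carboxy terminus.
Stat3-203 (STAT3α): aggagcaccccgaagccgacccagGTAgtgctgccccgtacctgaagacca
Stat3-201: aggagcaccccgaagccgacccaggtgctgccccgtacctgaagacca
Stat3-203 (STAT3α): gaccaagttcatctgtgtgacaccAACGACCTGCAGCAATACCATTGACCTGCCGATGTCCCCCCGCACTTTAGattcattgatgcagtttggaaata
Stat3-202 (STAT3β): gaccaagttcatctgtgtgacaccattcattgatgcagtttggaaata

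*Stat5a* and *Stat5b* are close paralogs. Of 2343 aligned coding positions of *Stat5a*-202 and *Stat5b*-201, 2125 (90.7%) were identical, and the longest identical run was 324 bases. Of the 31-base words in the *Stat5a* transcripts, 10.3% also occur in *Stat5b*, while no other member holds any of them. Coding positions 559 to 615 of both genes are shown, with the base that differs just before the longest run in capitals. Reads that fall within such runs were divided between the genes by the authors' program.
Stat5a-202: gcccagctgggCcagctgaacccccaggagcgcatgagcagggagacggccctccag
Stat5b-201: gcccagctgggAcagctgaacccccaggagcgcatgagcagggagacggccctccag

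*Stat3* was the most abundant member and *Stat4* the least. Per transcript length, the mean of the unstimulated cultures was 102 TPM ± 6.21 for *Stat3*, 40.5 ± 3.64 for *Stat6*, 19.5 ± 2.06 for *Stat2*, 14.002 ± 1.02 for *Stat5b*, 4.03 ± 0.206 for *Stat5a* and 0.0471 ± 0.0348 for *Stat4* (SD, n = 5). Over all 15 cultures the levels were 95.4 to 115 TPM for *Stat3*, 32.1 to 44.5 for *Stat6*, 16.6 to 22.7 for *Stat2*, 12.2 to 15.8 for *Stat5b*, 3.77 to 5.47 for *Stat5a* and 0 to 0.348 for *Stat4*. No neighbours in this order overlapped in any culture. The order of *Stat2* over *Stat5b* rested on short transcripts. The full-length coding transcript *Stat2*-201 alone reached 12.4 to 16.5 TPM, which overlapped *Stat5b*-201 with 10.8 to 15.1 TPM.

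**Figure D1:**
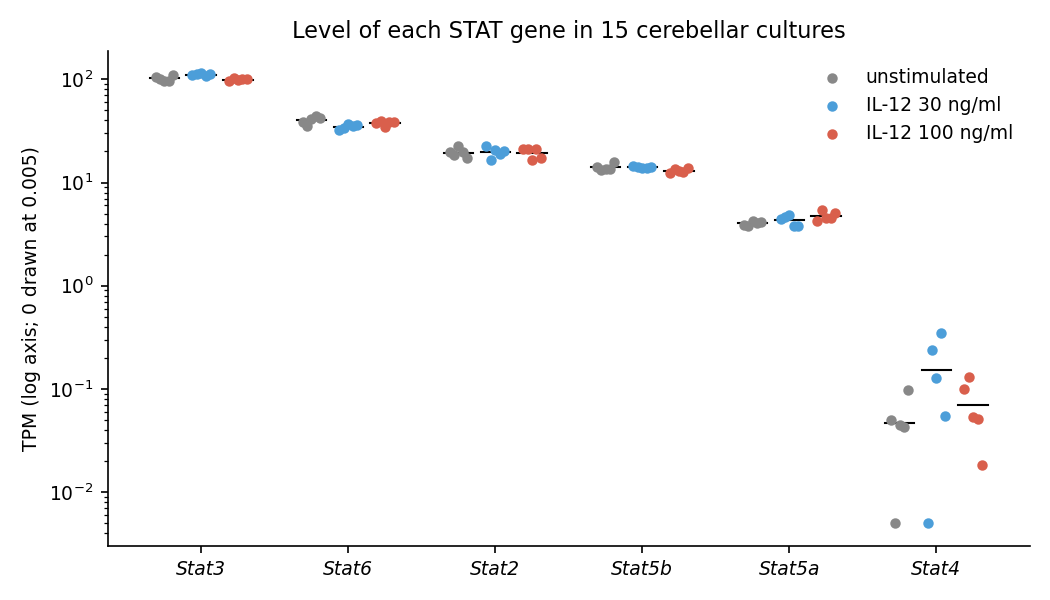
The level of each STAT gene in TPM on a log axis, with 1 point per culture, a line at the mean of each group of 5 and values of 0 drawn at 0.005. *Stat3* lies between 95.4 and 115 TPM in all cultures, and *Stat4* is at or below 0.348 TPM.

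Changes of the family under IL-12 were few and small. At 100 ng/ml, 5 members passed the filter of at least 1 CPM (counts scaled to library size with TMM) in at least 2 cultures, and 1 of them, *Stat5a*, was called (edgeR's quasi-likelihood test, FDR under 0.05), beside 9.77% of the 15360 genes tested and 5.83% called in the upward direction. At 30 ng/ml, 1 of the same 5, *Stat6*, was called downward, beside 7.87% of all genes and 3.71% called lower. The median log2 fold change of the 5 members was −0.01 for the higher dose and 0.02 for the lower, beside −0.0038 and 0.00014 over all genes tested. Both comparisons share the unstimulated cultures.

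*Stat5a* was the member that rose, at the higher dose. Its factor is known for prolactin and GM-CSF signals. The unstimulated cultures had 7.60, 8.21, 8.84, 8.46 and 8.64 CPM, those at 30 ng/ml had 8.32, 8.83, 10.4, 7.76 and 7.93 CPM, and those at 100 ng/ml had 9.74, 10.3, 9.33, 10.1 and 10.6 CPM. All 5 cultures at 100 ng/ml lay above all 5 unstimulated cultures, whereas at 30 ng/ml only replicate 3 did and the groups overlapped. The log2 fold change was 0.26 (SE 0.08) at 100 ng/ml with an edgeR FDR of 0.0401, and 0.05 (SE 0.08) at 30 ng/ml with an FDR of 0.762. The gene had 224 to 363 reads per culture. The call rested on each of 7 cultures, as leaving out unstimulated replicate 1, 2, 4 or 5, or replicate 1, 4 or 5 at 100 ng/ml, gave edgeR FDR values of 0.0583 to 0.110 with log2 fold changes of 0.23 to 0.28. It was also lost without a filter on low counts, with an FDR of 0.0699.

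*Stat5b*, the growth hormone effector beside it, was the more abundant of the pair in reads. Without IL-12 the cultures had 41.2, 41.1, 43.1, 41.7 and 46.4 CPM, those at 30 ng/ml had 43.4, 40.7, 41.4, 40.3 and 40.6, and those at 100 ng/ml had 39.7, 40.1, 40.6, 39.3 and 41.1. The highest value at 100 ng/ml and the lowest without IL-12 were both 41.1 CPM. The log2 difference of −0.09 at 100 ng/ml (95% interval −0.17 to −0.0012) did not pass, with an edgeR FDR of 0.189. The sum of both paralogs, which does not depend on how their shared reads were divided, was 51.1 CPM ± 2.54 unstimulated, 49.9 ± 1.73 at 30 ng/ml and 50.2 ± 0.939 at 100 ng/ml (SD, n = 5). *Stat5a* made up 20.9% to 24.1% of their joint TPM without IL-12, 20.9% to 25.6% at 30 ng/ml and 25.9% to 28.8% at 100 ng/ml. With the higher dose the share did not overlap those of the other groups. It was chosen for description after the levels had been seen and is given without a test.

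*Stat6*, the IL-4 and IL-13 effector, fell at the lower dose. The unstimulated cultures had 75.1, 68.3, 88.9, 90.6 and 82.5 CPM, those at 30 ng/ml had 62.6, 67.1, 72.3, 73.1 and 66.7, and those at 100 ng/ml had 79.8, 78.0, 74.6, 80.1 and 77.9. The cultures at 30 ng/ml overlapped the unstimulated group only through unstimulated replicate 2, and all 5 lay below all 5 cultures at 100 ng/ml. The log2 fold change was −0.25 (SE 0.07) at 30 ng/ml with an edgeR FDR of 0.0296, and −0.05 (SE 0.07) at 100 ng/ml with an FDR of 0.653. The fall was not called when unstimulated replicate 3, 4 or 5 or replicate 1, 2 or 5 at 30 ng/ml was left out, with edgeR FDR values of 0.0584 to 0.0884 and log2 fold changes of −0.20 to −0.24.

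Markers of microglia moved with *Stat6*. Of 14 microglial markers, 9 fell at 30 ng/ml, beside 3.71% of all genes called lower. At 100 ng/ml 0 were called by edgeR and 2 had an unadjusted p under 0.05. Their summed TPM was 9003 to 12675 in the unstimulated cultures, 7184 to 8989 at 30 ng/ml and 8597 to 11288 at 100 ng/ml, and no marker was under 1 CPM in all cultures. Of 14 neuronal markers tested at 30 ng/ml, *Calb1* and *Gad1* fell and *Tubb3* rose, 9 had an unadjusted p under 0.05, and the median log2 fold change was −0.42, the same as that of the microglial markers. The part of either list in the value of *Stat6* was not tested. The 3 protein-coding genes whose log2 CPM was most like that of *Stat6* over the 15 cultures, of 12144 genes with at least 5 CPM, were *Irag2* (Pearson r = 0.97), *Sash3* (r = 0.96) and *Cyth4* (r = 0.96). These values are descriptions, and the points share the groups and the libraries.

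**Figure D2:**
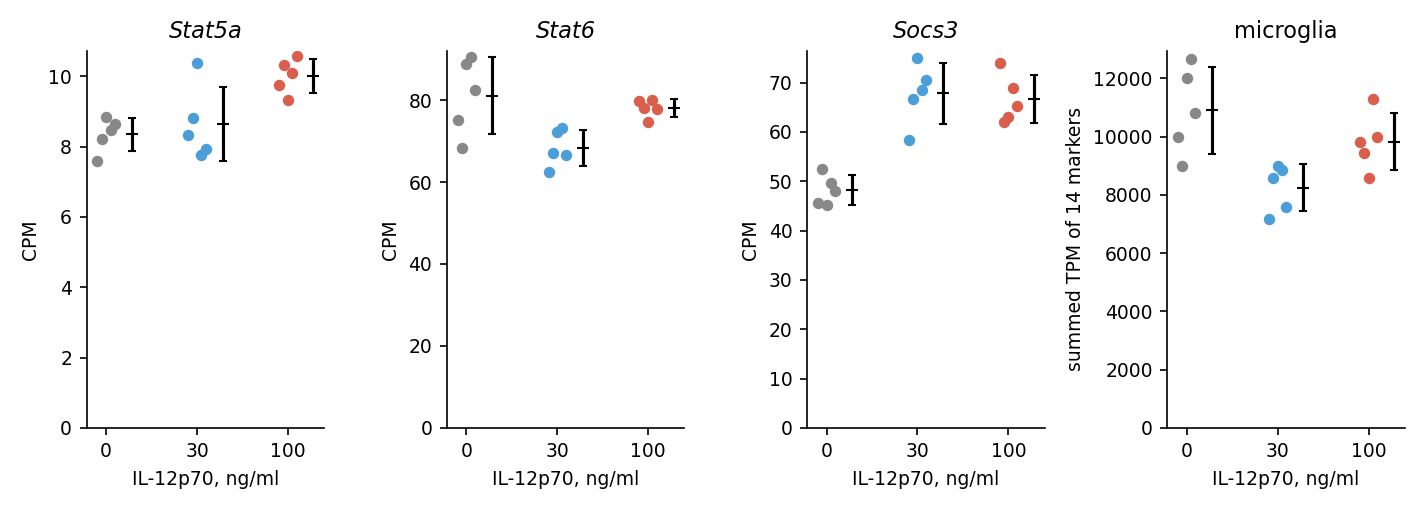
*Stat5a*, *Stat6* and *Socs3* in CPM and the summed TPM of 14 microglial markers against the dose of IL-12p70, with 1 point per culture and the mean with its SD (n = 5) beside the points, on axes that start at 0. *Stat5a* is highest at 100 ng/ml, *Stat6* and the microglial sum are lowest at 30 ng/ml, and *Socs3* is raised at both doses.

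*Stat3*, the IL-6 family effector, was measured with 5582 to 8655 reads per culture. Values without IL-12 were 226, 225, 231, 225 and 241 CPM, those for 30 ng/ml were 232, 239, 256, 234 and 234, and those for 100 ng/ml were 220, 218, 228, 234 and 237. All 3 groups overlapped. The log2 difference from unstimulated was 0.06 for the lower dose (95% interval −0.02 to 0.14, edgeR FDR 0.412) and −0.01 for the higher (−0.10 to 0.07, FDR 0.865). On the TPM scale, which adds the short transcripts at more weight, the cultures at 30 ng/ml had 107 to 115 TPM and those at 100 ng/ml 95.4 to 103 TPM, without overlap. That separation was not tested. In counts, 100 against 30 ng/ml gave a log2 difference of −0.07 without a call (edgeR FDR 0.459).

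*Stat2*, the partner of IRF9 downstream of type I interferon, was spread more widely. In unstimulated cultures there were 37.2, 36.2, 45.1, 42.3 and 34.05 CPM, those at 30 ng/ml had 39.8, 36.1, 42.9, 40.3 and 37.8, and those at 100 ng/ml had 44.4, 42.5, 35.6, 46.0 and 36.4. All groups overlapped. The log2 difference from unstimulated was 0.02 for the lower dose (95% interval −0.16 to 0.19, edgeR FDR 0.938) and 0.07 for the higher (−0.10 to 0.25, FDR 0.628). Over the 15 cultures its log2 CPM was most like that of *Irf9* (r = 0.91), *Rtp4* (r = 0.90) and *Oas1a* (r = 0.89), none of which was called at either dose.

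*Stat4*, the classical IL-12 effector, was close to the limit of what this depth can show. The unstimulated cultures had 2.94, 0, 2, 2 and 4 estimated reads, those at 30 ng/ml had 0, 5.77, 2, 3 and 2.39, and those at 100 ng/ml had 1, 3, 1, 2.51 and 1. These add up to 32.6 of 446888522 reads in all cultures. In the 2 cultures at 0, a count of 0 allows up to 3 reads, and over the 15 cultures 3 reads are worth 0.0781 to 0.117 CPM (counting error only). The gene did not pass the filter, and no fold change is given. Its deposited models are shorter than those of GENCODE M39, with 2982 against 8062 bases for *Stat4*-201 and 2662 against 7737 for *Stat4*-202. Reads from the bases beyond these models may not have been counted. Part of its exons is also shared with noncoding genes, as given above. Of 9 markers of T and NK cells, 7 were under 1 CPM in all cultures, *Ncr1* was at 0 in all, and *Cd3e* reached at most 0.115 CPM. The other 2, *Cd4* and *Klrb1c*, passed the filter and were not called at either dose.

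The doses were also set against each other. Between 100 and 30 ng/ml, 0 of 5 members were called, beside 0.579% of all genes, while 2 members had an unadjusted p under 0.05 and DESeq2 called 0. These 2 were the members called above. *Stat5a* was higher at 100 than at 30 ng/ml by 0.21 on the log2 scale (95% interval 0.05 to 0.38) with an edgeR FDR of 0.262, and *Stat6* by 0.19 (0.05 to 0.33) with an FDR of 0.244. In the mean of both doses against the unstimulated cultures, 0 of 5 members were called, beside 11.9% of all genes, while 2 had an unadjusted p under 0.05 and DESeq2 called 0.

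**Figure D3:**
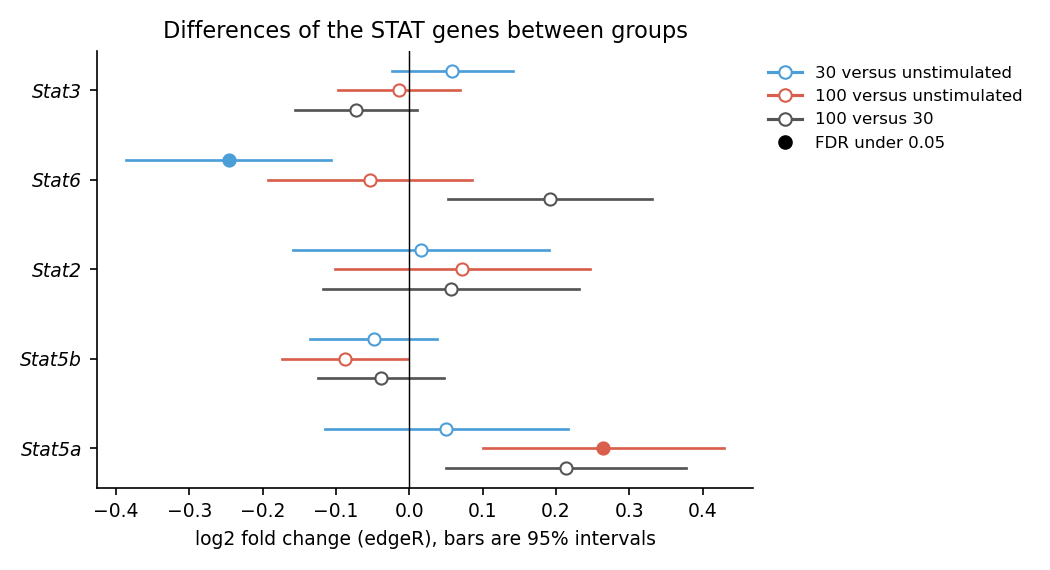
Log2 fold changes of the 5 STAT genes that passed the filter, from edgeR, with their 95% intervals, for 30 ng/ml and 100 ng/ml against unstimulated and for 100 against 30 ng/ml. Filled points are called at an FDR under 0.05, which holds for *Stat6* at 30 ng/ml (−0.25) and *Stat5a* at 100 ng/ml (0.26).

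The division of each gene among its transcripts was next examined. The STAT3α transcript *Stat3*-203, with 770 codons, held 72.8% ± 2.06 of the *Stat3* TPM without IL-12. It held 70.8% ± 1.94 at 30 ng/ml and 73.6% ± 3.34 at 100 ng/ml (SD, n = 5). *Stat3*-201, the STAT3α form that lacks the 3 bases shown above, has 769 codons. It held 10.7% ± 1.35, 10.6% ± 2.28 and 10.3% ± 3.12. The STAT3β transcript *Stat3*-202, without the 50 bases, held 0.386% to 1.06% of the TPM over all cultures, on 40.7 to 126 estimated reads. *Stat3*-214, which has no defined coding sequence, held 1.89% to 14.6% of the TPM on 15.4 to 144 reads, so its share had little depth behind it. The lengths in the deposited values differ from those of GENCODE M39 for these forms (4516 against 6289 bases for *Stat3*-203 and 2927 against 6286 for *Stat3*-201), and the division also rests on the ends of the older models.

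In each of the other members that passed the filter, 1 coding transcript held most of the reads. *Stat6*-201 held 97.8% to 98.1% of the reads of *Stat6* and *Stat2*-201 94.2% to 95.2% of those of *Stat2* in the group means. *Stat5b*-201 held 89.9% to 94.3% of the reads of its gene. *Stat5a*-202 held 73.3% to 84.7% of the reads of *Stat5a* in the group means. In TPM over the cultures, *Stat5a* was the least uniform of these, with 49.7% to 99.3% for *Stat5a*-202. The range was 61.6% to 81.1% for *Stat2*-201, 76.4% to 98.3% for *Stat5b*-201 and 84.4% to 94.7% for *Stat6*-201. *Stat5a*-203 was at 0% of the *Stat5a* TPM in some cultures and at up to 37.7% in others of the same group. The gene had only 224 to 363 reads per culture to divide among similar transcripts, and the part of this division in the spread was not tested. Of 26 shares tested (13 transcripts with at least 5% of their gene, IL-12 against unstimulated and 100 against 30 ng/ml), 0 passed a two-sided exact permutation test after adjustment, 0 had an unadjusted p under 0.05, and the smallest adjusted p was 0.688.

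**Figure D4:**
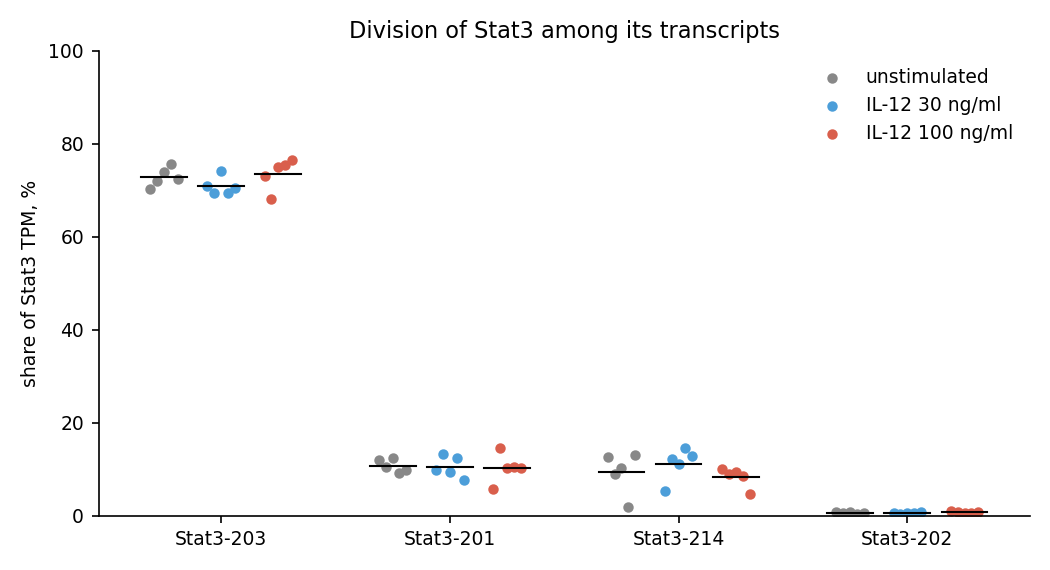
The share of the *Stat3* TPM held by 4 of its transcripts, in percent, with 1 point per culture and a line at the mean of each group of 5. *Stat3*-203 holds between 68.1% and 76.5%, and the STAT3β transcript *Stat3*-202 at most 1.06%.

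Transcripts were also tested across all genes. Of 13 STAT transcripts tested, edgeR called 0 at 100 ng/ml (beside 0.559% of 41466 transcripts), 0 at 30 ng/ml (beside 0.359%), 0 between the doses (0.0217%) and 0 in the mean of both (0.784%). At an unadjusted p under 0.05 there were 0, 1, 1 and 1, in each case *Stat6*-201, and DESeq2 called 0, 1, 0 and 0. *Stat6*-201 differed at 30 ng/ml by −0.25 on the log2 scale (SE 0.07, edgeR FDR 0.203), the same size as its gene.

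The pathway around the STATs, from ligands and receptors to inhibitors and nuclear partners, was described by 70 genes, of which 61 passed the filter. At 100 ng/ml, 5 were called, 2 higher and 3 lower, beside 5.83% and 3.93% of all genes. At 30 ng/ml, 9 were called, 4 higher and 5 lower, beside 4.16% and 3.71%. The medians of −0.01 and −0.03 on the log2 scale lay next to those of all genes. Between the doses, 0 were called by edgeR, 17 had an unadjusted p under 0.05 and DESeq2 called 2.

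Of the IL-12 receptor chains and the Janus kinases (6 genes), 1 was called at each dose, as lower. Of all genes, 3.93% were called lower at 100 ng/ml and 3.71% at 30 ng/ml. *Il12rb1* was at the edge of detection with 1.05 CPM ± 0.184 in the unstimulated cultures, and *Il12rb2* had 3.70 ± 0.262. Their log2 differences at 100 ng/ml were −0.20 (95% interval −0.61 to 0.21) and 0.25 (0.01 to 0.48), with edgeR FDR values of 0.562 and 0.184. *Jak2* and *Tyk2*, the kinases bound to these chains, differed by −0.07 and 0.08 (FDR 0.509 and 0.398) and *Jak1* by −0.11 (FDR 0.13).

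*Jak3*, the kinase of the common gamma chain receptors, was the one that fell. Its level was 32.1, 28.6, 40.9, 39.5 and 40.8 CPM without IL-12, 20.1, 24.6, 24.9, 26.3 and 24.4 with 30 ng/ml, and 25.4, 21.7, 22.2, 28.3 and 23.3 with 100 ng/ml. All 10 stimulated cultures lay below all 5 unstimulated ones. The log2 fold change was −0.60 (SE 0.10) at 30 ng/ml and −0.59 (SE 0.10) at 100 ng/ml, with edgeR FDR values of 0.00188 and 0.00144. It was called in all 23 alternatives at both doses. Beside it, the median log2 fold change of the 14 microglial markers was −0.42 at 30 ng/ml, with 9 called lower, and −0.12 at 100 ng/ml, with 0 called by edgeR and 2 at an unadjusted p under 0.05. Of 14 neuronal markers, 2 were called lower and 1 higher at 30 ng/ml, and 1 lower and 1 higher at 100 ng/ml. Their medians were −0.42 and −0.20. Those of the oligodendrocyte lineage were −0.09 and −0.15, with 1 and 3 called lower, and those of astrocytes 0.18 and 0.03. The part of these lists in the value of *Jak3* was not tested.

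Of 14 ligands and receptors of the IL-6 family, 12 passed the filter, and 2 rose at 30 ng/ml, beside 4.16% of all genes called higher. *Lif*, a ligand that acts through STAT3, had 13.4, 16.8, 18.7, 17.1 and 16.1 CPM in the unstimulated cultures, 19.5, 19.0, 20.7, 27.3 and 25.8 at 30 ng/ml and 20.9, 18.7, 27.1, 19.2 and 20.1 at 100 ng/ml. All stimulated cultures lay above the unstimulated ones, though the lowest at 100 ng/ml met the highest without IL-12 at 18.7 CPM. *Lif* rose by 0.46 on the log2 scale for the lower dose (edgeR FDR 0.0251) and was 0.37 higher for the other, without a call (FDR 0.0563). *Osmr*, the oncostatin M receptor, rose by 0.17 at 30 ng/ml (FDR 0.0473) and was 0.15 higher at 100 ng/ml (FDR 0.0721). *Il6st*, the shared receptor chain gp130, was 0.15 and 0.11 higher (FDR 0.0863 and 0.171). With the higher dose edgeR called 0 of the 12, with 7 at an unadjusted p under 0.05 and 1 called by DESeq2. The rise of *Lif* at 30 ng/ml was not called without unstimulated replicate 1 or 5 or without replicate 4 or 5 at that dose (FDR 0.056 to 0.0718), and that of *Osmr* was lost in 12 of 23 alternatives.

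The other receptors were in 2 lists. Of 5 genes tested among interferons and their receptors, 1 fell at 30 ng/ml, and of 15 other cytokine and hormone receptors 3 fell and 1 rose. Of all genes, 3.71% were called lower and 4.16% higher at that dose. The interferon gamma receptor chain *Ifngr1* fell by 0.28 on the log2 scale (edgeR FDR 0.00721), *Il10ra* by 0.54 (FDR 0.00396), *Csf2rb*, the chain shared by GM-CSF and IL-3, by 0.43 (FDR 0.015) and *Csf3r*, the G-CSF receptor, by 0.39 (FDR 0.0282). The growth hormone receptor *Ghr* rose by 0.21 (FDR 0.0407). At 100 ng/ml, none of these 5 was called, with FDR values of 0.0889 to 0.409, and the leptin receptor *Lepr* fell by 0.47 (FDR 0.0291), a call lost in 6 of 23 alternatives. The calls of *Csf3r* and *Ghr* were lost in 4 and 7 of 23. At 30 ng/ml 9 of 14 microglial markers fell as well, and the neuronal markers had the same median, as given above. The part of either list in these values was not tested. *Csf3r* and *Ghr* were named after their values had been seen.

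Among 18 inhibitors, *Socs3*, a STAT3-induced brake on the IL-6 family receptors, rose at both doses. The unstimulated cultures had 45.6, 52.5, 45.1, 49.7 and 48.0 CPM, those at 30 ng/ml had 58.3, 66.7, 75.0, 68.5 and 70.5, and those at 100 ng/ml had 74.0, 62.0, 63.1, 68.9 and 65.2. All 10 stimulated cultures lay above all 5 unstimulated ones. The log2 fold change was 0.49 (SE 0.07) at 30 ng/ml and 0.47 (SE 0.07) at 100 ng/ml, with edgeR FDR values of 0.000452 and 0.000253, and it was called in all 23 alternatives. *Socs6* fell by 0.28 at 100 ng/ml (FDR 0.038), a call lost in 9 of 23 alternatives.

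The other inhibitors always named were not called. *Socs1* had 1.10 CPM ± 0.0382 unstimulated and 1.36 ± 0.304 at 100 ng/ml (log2 difference 0.31, edgeR FDR 0.259), *Socs2* had 7.38 ± 0.36 and 7.02 ± 0.366 (−0.07, FDR 0.556), and *Cish*, a gene induced by STAT5, had 2.50 ± 0.369 and 2.43 ± 0.278 (−0.04, FDR 0.876). For the lower dose the differences were 0.16 for *Socs1*, 0.09 for *Socs2* and 0.26 for *Cish*, with FDR values of 0.639, 0.468 and 0.259. Of 5 nuclear partners, *Nmi* rose at 100 ng/ml by 0.28 (FDR 0.048), a call lost in 11 of 23 alternatives, and *Irf9* was 0.14 higher without a call (FDR 0.221).

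Genes known to respond to each STAT were then counted. These lists were drawn up with earlier results of these data known, and the STAT3 list is not independent evidence of its direction. Of 59 genes, 41 passed the filter. At 100 ng/ml 9 were called, all higher, beside 5.83% of all genes called higher. At 30 ng/ml 8 were called, 7 higher and 1 lower, beside 4.16% and 3.71% of all genes. Between the doses edgeR called 0, with 6 at an unadjusted p under 0.05 and 2 called by DESeq2.

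The genes known to respond to STAT3 held most of these calls. Of 14 tested, 8 rose at 100 ng/ml and 6 at 30 ng/ml, beside 5.83% and 4.16% of all genes called higher, and their median log2 fold change was 0.24 and 0.26, beside −0.0038 and 0.00014 over all genes. The iron carrier *Lcn2* rose from 197 CPM ± 41.9 to 407 ± 66.4 at 100 ng/ml (log2 fold change 1.05, edgeR FDR 0.000451). The metalloreductase *Steap4* rose from 25.95 ± 5.10 to 53.7 ± 7.63 (1.05, FDR 0.000164), the protease inhibitor *Timp1* from 18.8 ± 1.13 to 37.5 ± 4.39 (0.99, FDR 1.56e-07) and the NF-kB regulator *Bcl3* from 8.83 ± 0.412 to 14.3 ± 0.934 (0.69, FDR 2.73e-06). In these 4 genes, all cultures at 100 ng/ml lay above all unstimulated ones. They were named for being called with the largest changes of the list at that dose, so this separation is no further evidence. For the lower dose, *Lcn2* was 0.51 higher without a call (FDR 0.0501), while *Steap4* rose by 0.68, *Timp1* by 0.68 and *Bcl3* by 0.66, with FDR values of 0.00665, 6.39e-05 and 1.91e-05. The level of *Stat3* itself did not pass the test in either comparison, as given above. Astrocyte markers moved beside this list, as 4 of 10 rose at 30 ng/ml, and 2 rose and 1 fell at 100 ng/ml. The summed TPM of the 10 was 3814 to 4276 unstimulated, 4519 to 5279 at 30 ng/ml and 4231 to 4691 at 100 ng/ml. Their part in these values was not tested.

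The lists of the other factors held fewer calls than that of STAT3. Of all genes, 9.77% were called in either direction at 100 ng/ml and 7.87% at 30 ng/ml. In lists this short, 0 calls lie near these shares. Of 17 genes known to respond to STAT2 with IRF9, edgeR called 0 at either dose, with 3 at an unadjusted p under 0.05 at each dose and 0 called by DESeq2. Their median log2 fold change was 0.13 for the higher dose and 0.08 for the lower, within a range from −0.79 to 0.43. Of 6 genes tested of the STAT5 list, *Gadd45g*, a stress-induced growth arrest gene, rose by 0.39 for the higher dose (edgeR FDR 0.00242) and by 0.51 for the lower (FDR 0.000524), and *Igf1* fell by 0.37 at 30 ng/ml (FDR 0.0338). *Igf1* is also made by microglia, whose markers fell at that dose, and its call was lost in 7 of 23 alternatives. Of the STAT4 and STAT6 lists, 2 of 6 and 2 of 14 genes passed the filter, and 0 were called by edgeR or DESeq2. In the STAT4 list 1 gene had an unadjusted p under 0.05, at 30 ng/ml, and none did in the STAT6 list.

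**Figure D5:**
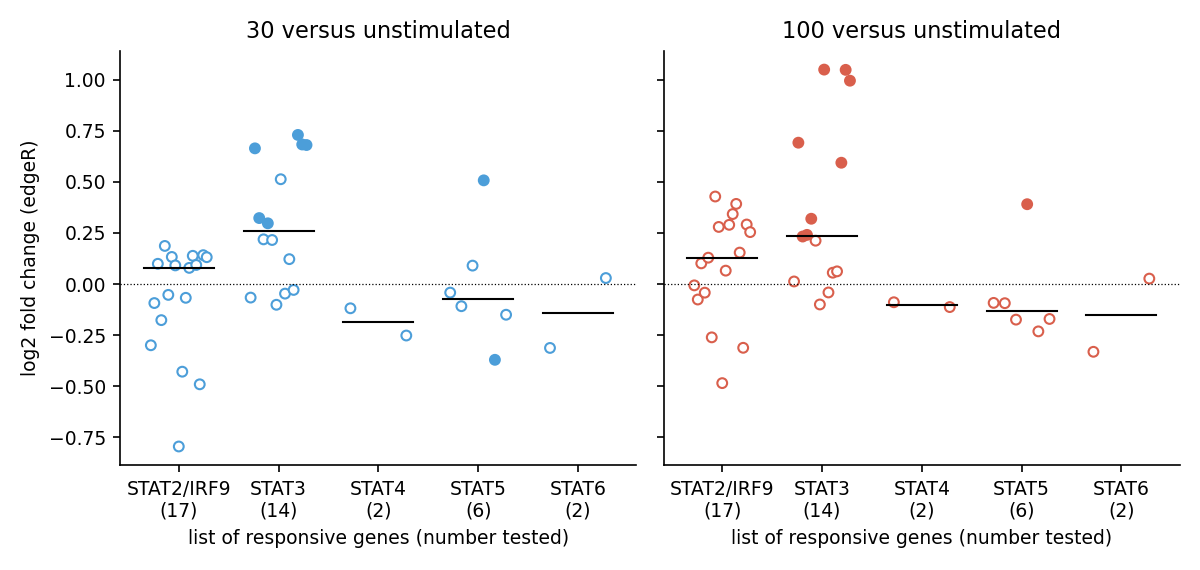
Log2 fold changes, from edgeR, of the genes known to respond to each STAT at 30 ng/ml (left) and 100 ng/ml (right) against unstimulated, with 1 point per gene, filled where the FDR is under 0.05, and a line at the median of each list. Filled points lie mostly in the STAT3 list, with 6 at 30 ng/ml and 8 at 100 ng/ml.

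The promoters of the family were searched for the letters that STAT complexes bind, because members can be targets of other members. The windows (RefSeq, GRCm38.p6, 250 bases before to 50 after a start) were found for all 6 members, with 9 windows in all. The motif TTCNNNGAA, which reads the same on both strands and is the core bound by STAT dimers, was in none of the 9, and in 8.3% of 32851 windows of all genes. The same ends with any 4 bases between them were in 1 of the 9, that of *Stat2* at 210 bases before the start, and in 6.95% of all windows. The core of the interferon-stimulated response element, TTTC and TTTC with any 2 bases between them, or GAAA and GAAA on the other strand, was in windows of *Stat2* and *Stat4*, and in 3.44% of all windows. The *Stat2* window up to its start (chr10:128270248-128270497 on GRCm38.p6, plus strand) is shown with the motif in capitals, 222 bases before the start.
Stat2: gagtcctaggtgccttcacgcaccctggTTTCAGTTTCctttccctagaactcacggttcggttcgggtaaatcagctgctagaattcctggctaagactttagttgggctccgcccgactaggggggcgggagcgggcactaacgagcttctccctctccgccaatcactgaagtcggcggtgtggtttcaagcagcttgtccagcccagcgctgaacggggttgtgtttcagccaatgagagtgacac

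The stretch of the *Stat4* window with the same motif on the other strand (chr1:52008123-52008172 on GRCm38.p6, plus strand) follows. *Socs3* (chr11:117969492-117969540, minus strand) and *Steap4* (chr5:7960336-7960384, plus strand) rose under IL-12 and hold TTCNNNGAA, 154 and 116 bases before their starts, and their stretches are shown with it in capitals. *Cish*, *Bcl6* and *Il12rb2* hold it and were not called, and the windows of *Bcl3*, *Timp1*, *Lcn2*, *Serpina3n* and *Gadd45g*, which were called, do not hold it. *Gfap*, called higher in the mean of both doses, holds TTCNNNGAA 2 bases before its start. Of these genes, *Bcl6*, *Gfap* and *Serpina3n* were picked out after their values had been seen. Of the STAT3 list, 12 genes had 15 windows and 2 of the genes held TTCNNNGAA. Of the STAT2 list, 12 genes had 13 windows and 7 of the genes held the interferon-type core. These are counts of genes, while the shares over all genes given above are per window. A match of letters is a description and not a site of binding.
Stat4: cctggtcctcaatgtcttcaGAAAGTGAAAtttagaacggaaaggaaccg
Socs3: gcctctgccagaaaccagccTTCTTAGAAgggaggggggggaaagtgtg
Steap4: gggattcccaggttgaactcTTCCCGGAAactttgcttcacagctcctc

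The members did not vary as a block across cultures. Over the 15 cultures, Pearson correlations of log2 CPM between pairs of the 5 tested members were from −0.36 (*Stat2* with *Stat5b*) to 0.40 (*Stat2* with *Stat6*), as a description over points that share the groups and libraries. By the same measure, *Stat5a* was most like *Icam1* (r = 0.89), *Acsl5* (r = 0.88) and *Mcm10* (r = 0.87), *Stat3* most like *Btbd9* (r = 0.85), *Rbm14* (r = 0.79) and *Slc7a5* (r = 0.78), and *Stat5b* most like *Vhl* (r = 0.79), *Foxk1* (r = 0.79) and *Pias1* (r = 0.78).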

How the data were processed

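Bulk RNA-seq of 15 cerebellar cultures was used. Per the labels, libraries were made with a stranded mRNA kit, and the submitters' processing notes name FastQC 0.10.0, STAR 2.7.8a, featureCounts and GRCm39. The deposited values are of another kind: for 121798 transcripts, the authors give length, effective length, estimated counts and TPM, in a pseudoalignment layout, and the program and its use of strand are not given in the sources used here. Estimated counts and TPM were summed to 35142 genes by identifier with GENCODE M39 (99.0% of transcripts matched, and the others held 0.677% to 0.712% of the reads), and counts were rounded. Depth was 25746096 to 38435850 reads per culture, and the floors cover counting error only. The intervals come from the edgeR fit and, like its p-values, measure the spread between these cultures.

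Features reaching 1 CPM in 2 or more cultures (15360 genes, 41466 transcripts) were scaled with TMM and tested with edgeR 4.0.16 (R 4.3.3, quasi-likelihood, 1 fit of 3 groups, Benjamini-Hochberg FDR over all features, threshold 0.05). Transcript shares were tested by exact permutation of cultures, two-sided. DESeq2 1.42.0, other scaling, filters, tests, sub-groups, the replicate number as a block and each culture left out were alternatives. The edgeR script was tested on simulated data.

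The members and lists were chosen with earlier results of these data known. Named in the text are the 6 members, a set of pathway genes (receptor chains, kinases, *Il6st*, *Irf9* and inhibitors), up to 5 called genes per pathway list and 4 per responsive list by size at 100 ng/ml, the 3 genes most like each member, and transcripts with at least 5% of their gene. Proteins were not analysed here.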

Additional observations from a re-analysis of the deposited data

Results flagged for a closer look

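In 9 of 135 groups of 5 cultures (named genes and transcript shares), 1 culture stood apart from the other 4 by more than Dixon's criterion allows, and chance flags about 1 in 20 such groups. At 100 ng/ml, *Il12rb1* was at 1.17 CPM in replicate 5 beside 0.822 to 0.875 in the others, *Nmi* at 9.62 CPM in replicate 5 beside 11.1 or more, *Lif* at 27.1 CPM in replicate 3 beside 18.7 to 20.9, the share of *Stat3*-214 at 4.61% in replicate 5 beside 8.49% to 10.03%, and the share of *Stat6*-201 at 94.7% in replicate 3 beside 88.5% to 90.1%. In the unstimulated cultures, *Jak1* was at 163 CPM in replicate 2 beside 174 to 177, *Jak2* at 64.1 CPM in replicate 1 beside 55.8 to 57.9, and *Tyk2* at 42.6 CPM in replicate 4 beside 34.1 to 36.4. At 30 ng/ml, *Socs6* was at 35.8 CPM in replicate 4 beside 41.4 to 43.6.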

How the results depend on the processing

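Calls near the threshold moved with single cultures. With 1 culture removed at a time, the number of STAT genes called was 0 to 1 at 100 ng/ml, 0 to 1 at 30 ng/ml and 0 to 1 in the mean of both doses. In that mean, *Stat6* was called without unstimulated replicate 2 (edgeR FDR 0.0138). The number of pathway genes called was 2 to 9 at 100 ng/ml, 6 to 17 at 30 ng/ml, 0 to 1 between the doses and 6 to 15 in the mean, that of responsive genes between the doses 0 to 1, and that of STAT transcripts at 30 ng/ml 0 to 1. The cause was not tested.

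Without a filter on low counts, 0 STAT genes were called at 100 ng/ml. An FDR under 0.1 gave 12 pathway genes at 100 ng/ml, 21 at 30 ng/ml, 1 between the doses and 17 in the mean, with 1 STAT gene in the mean and 1 responsive gene between the doses. DESeq2 called 16 pathway genes at 30 ng/ml, 2 between the doses and 14 in the mean, with 2 responsive genes between the doses and 1 STAT transcript at 30 ng/ml. The likelihood-ratio test called 14 pathway genes at 30 ng/ml and 2 between the doses, with 3 responsive genes between them. Fitting only the groups compared gave 2 pathway genes at 100 ng/ml and 2 between the doses. Between the doses, RLE factors, no filter and at least 10 counts in every culture each gave 1 responsive gene.

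The labels do not say what the replicate numbers mark. Deviations of same-numbered cultures from their group means had correlations of −0.18 to 0.26, over 0.1 in 4 of 15 pairs of cultures, so the numbers were not taken as pairing. With the replicate number as a block, 0 STAT genes and 3 pathway genes were called at 100 ng/ml, *Stat5a* with a log2 fold change of 0.27 (edgeR FDR 0.0607).

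Differences close to 0 changed sign when a culture was left out. On the log2 scale, *Stat3* at 100 ng/ml ranged from −0.029 to 0.0036, *Cish* at 100 ng/ml from −0.11 to 0.025, and at 30 ng/ml *Stat2* from −0.028 to 0.073, *Stat5a* from −0.022 to 0.086, *Il12rb2* from −0.028 to 0.12 and *Tyk2* from −0.060 to 0.023, none of them called. *Stat4* passed no filter, and its value without one is left out. Depth limits what can be said of *Stat4*, *Il12rb1*, *Stat3*-202 and the transcripts of *Stat5a*, and for *Stat4* so do the shorter deposited models.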
